A study of Mus musculus with 6 samples.

Results

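The transcription factors that build the effector state of regulatory T (Treg) cells were examined in RNA sequencing libraries of OGT-sufficient and OGT-deficient Treg cells. Their 9 genes, *Prdm1*, *Batf*, *Irf4*, *Id2*, *Maf*, *Rora*, *Gata3*, *Tbx21* and *Bcl6*, were chosen by name, as known factors of this programme, with earlier results of these data known. All 9 were found among the 24420 gene symbols of the deposited table. OGT adds O-GlcNAc, a single sugar, to serine and threonine residues of nuclear and cytosolic proteins. YFP+ cells from the lymph nodes of female C57BL/6 mice were compared, with 3 libraries of the genotype *Ogt*wt/fl (OGT-sufficient) and 3 of the genotype *Ogt*fl/fl (OGT-deficient). Every mouse also carried 1 *Foxp3*YFP-Cre allele beside a wild-type one (*Foxp3*YFP-Cre/wt). The 6 libraries therefore came from cells with a Cre and YFP under the endogenous *Foxp3* locus, of mice with at least 1 floxed *Ogt* allele. Both *Foxp3* and *Ogt* lie on the X chromosome, of which each cell silences one copy, so these females also hold YFP- Treg cells with intact OGT. Which X chromosome carries the floxed allele in the *Ogt*wt/fl genotype is not given in the sources used here, and the name OGT-sufficient is that of the study. The mice were young adults by a general statement in the study's methods, which give no age for these libraries in particular. The labels give each library its own identifier and do not say that each came from a separate mouse, so the tests measure only the spread between these libraries.

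A resting Treg cell becomes an effector Treg (eTreg) cell after stimulation through its T cell receptor, and it then moves into tissues and makes suppressive molecules. IRF4 and BATF, which sit together on composite DNA sites with JUN proteins, are induced by receptor signalling and start this programme, while BLIMP-1, the product of *Prdm1*, marks the cells that complete it. ID2, c-MAF, RORA, GATA3 and T-BET (*Tbx21*) shape effector subsets that share factors with helper T cells, and BCL6, which opposes BLIMP-1, is the factor of follicular T cells. The comparison of the genotypes asks whether the RNA of these factors depended on OGT.

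The total count was between 3375454 and 4103552 per library, of which the ribosomal RNA gene *Rn45s* took from 24.2% to 37.1%. Levels are given as CPM, counts scaled to library size after TMM normalization. *Ogt*, the targeted gene, was at 150, 170 and 251 CPM in the OGT-sufficient libraries and at 84.0, 67.0 and 96.0 CPM in the OGT-deficient libraries, with no overlap (log2 fold change -1.21, SE 0.21, adjusted p = 0.191 and between 1.6e-05 and 0.765 over the alternative settings). The table counts reads over the whole gene, so what remains need not be functional mRNA. *Foxp3*, the factor that defines Treg cells, did not separate the groups, at 239 ± 55.9 and 274 ± 22.6 CPM (SD, n = 3 each). OGT-sufficient replicate 3 stood apart: 18346 genes had a count there, against 14412 to 15197 in the others, and its 8 neutrophil genes summed to 314 CPM against 14.1 to 48.2 CPM elsewhere. All 15 macrophage genes fixed for a check had counts in every library, and their sum ranged from 2285 to 4871 CPM in OGT-sufficient and from 1657 to 7057 CPM in OGT-deficient libraries. In these bulk libraries, fewer cells of a type and less RNA per cell cannot be told apart.

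Each difference was tested with edgeR's quasi-likelihood test, with Benjamini-Hochberg adjustment over the 10949 genes with enough counts, and an adjusted p under 0.1 was called. All 9 factors entered the test. *Tbx21* passed the filter through its OGT-sufficient libraries (20, 24 and 25 counts), the group where it was higher (20, 10 and 7 counts in OGT-deficient libraries). None of the 9 was called, where the background was 0.0274% of all genes tested (0.0183% lower and 0.00913% higher). At an unadjusted p under 0.05 there were 4 of 9, against 7.1% of all genes: *Rora*, *Batf* and *Tbx21* were lower in OGT-deficient cells (background 4.01%) and *Irf4* was higher (3.09%). At an unadjusted p under 0.01 there were 2 of 9, *Rora* and *Irf4*, against 1.84% of all genes (0.959% lower and 0.886% higher). The same 4 genes as at 0.05 had groups that did not overlap, against 13.2% of all genes (7.48% lower and 5.72% higher). *Tbx21* entered these counts only through the group where it was high. With at least 10 counts required in every library it dropped out. Then 3 of 8 factors had an unadjusted p under 0.05, beside 721 of 9979 genes. The 9 were chosen with earlier results of these data known, so such counts are not independent evidence. Other tests on the same counts called some of them. The exact test of edgeR called 2 of 9 (*Rora* and *Irf4*), beside 80 of the 10949 genes tested. DESeq2 called 1 of 9 (*Rora*), beside 38 of 10949. The median log2 fold change of the 9 was -0.0031, beside -0.017 over all genes tested, so the factors had no common direction.

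**Figure D1:**
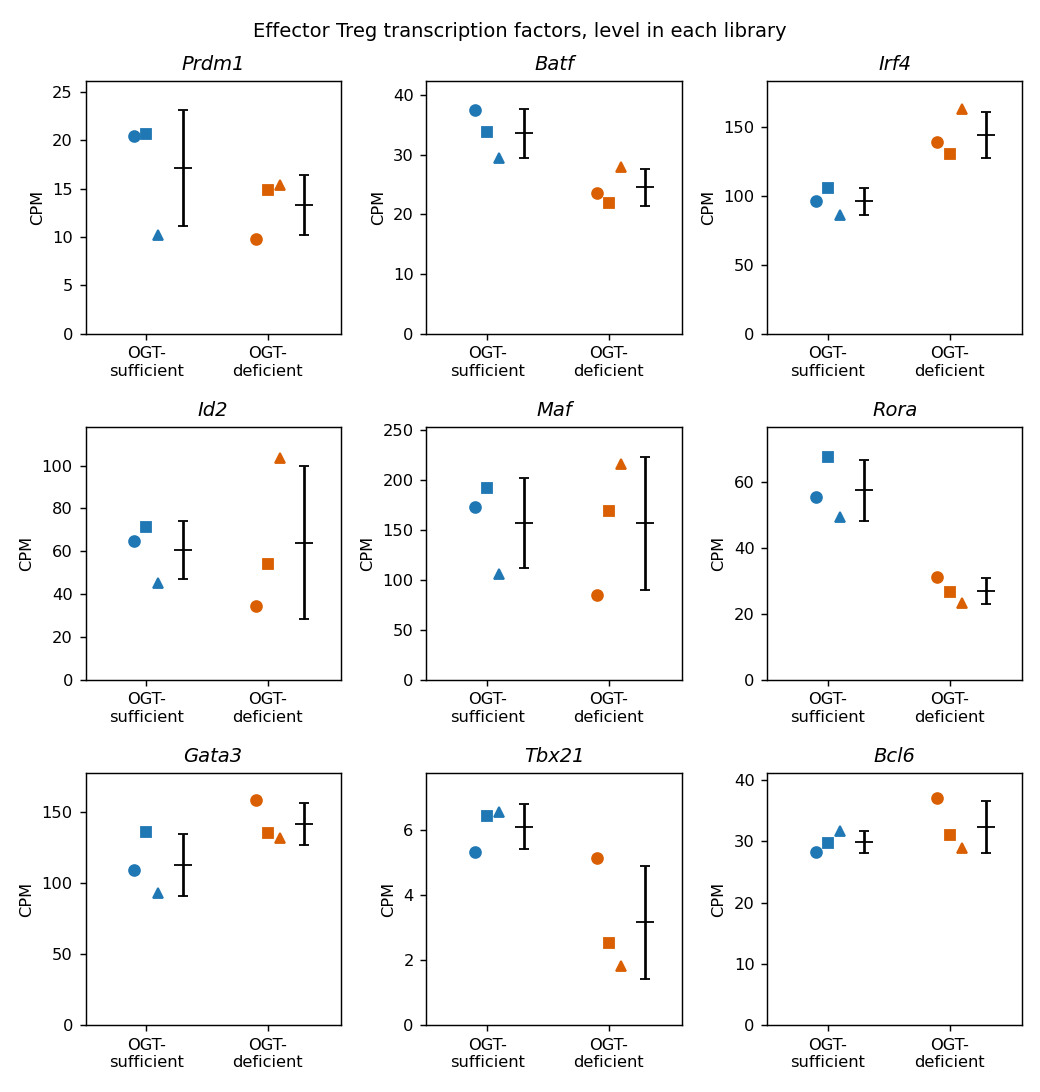
Level of each of the 9 factors in CPM (y axis, from 0) in the 3 OGT-sufficient (blue) and 3 OGT-deficient (orange) libraries; circles, squares and triangles are replicates 1, 2 and 3, and the black bar is the mean ± SD. The groups are apart in *Batf*, *Irf4*, *Rora* and *Tbx21* and overlap in the other 5 genes.

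The factors differed widely in level. Divided by the length of all annotated exons, which allows genes to be compared, OGT-sufficient cells had 28.3 ± 5.48 RPKM of *Gata3*, 24.8 ± 5.56 of *Id2*, 23.9 ± 2.91 of *Batf*, 19.6 ± 1.96 of *Irf4* and 19.1 ± 5.48 of *Maf* (mean ± SD in RPKM, n = 3). A second tier lay well below, with *Bcl6* at 4.46 ± 0.263, *Rora* at 4.40 ± 0.705, *Prdm1* at 3.07 ± 1.07 and *Tbx21* at 2.45 ± 0.273 RPKM. Neighbours within a tier lay within about 1 SD of each other, apart from *Batf* against *Irf4* and *Rora* against *Prdm1*, whereas the step from *Maf* to *Bcl6* was larger than the spread of either gene. In OGT-deficient cells *Irf4* (29.3 ± 3.43 RPKM) came next after *Gata3* (35.6 ± 3.63), ahead of *Id2* (26.2 ± 14.6), and *Batf* (17.4 ± 2.2) was the lowest of the upper tier, within the spread of *Maf* (19.0 ± 8.08). *Rora* (2.07 ± 0.301) then lay under *Prdm1* (2.39 ± 0.558), also within its spread. The exon length is that of all isoforms together, so a gene with many isoforms, such as *Rora* with 13071 bases, is understated.

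The 250 bases before the RefSeq start sites (GRCm38.p6) were read for 8 of the 9 genes (not *Maf*) and searched on both strands for TTCNNNGAA, the form bound by STAT factors, TGANTCA, the AP-1 form that BATF-JUN dimers also use, a pair of GAAA separated by 2 bases, an IRF form, and AGGTCA, the core bound by ROR receptors. These letters occur in 7.02%, 6.75%, 2.98% and 14% of all 32851 windows of this length. Of the 9 windows of the factors, 3 held a match. The windows of *Irf4* and *Rora*, the factors with the lowest p, are shown with those of the antagonists *Prdm1* and *Bcl6*, where the matches lie; capitals mark TGANTCA in *Prdm1* and TTCNNNGAA in *Bcl6*, and all windows are written 5′ to 3′ on the strand of the gene.
Irf4, chr13:30748983-30749232, plus strand: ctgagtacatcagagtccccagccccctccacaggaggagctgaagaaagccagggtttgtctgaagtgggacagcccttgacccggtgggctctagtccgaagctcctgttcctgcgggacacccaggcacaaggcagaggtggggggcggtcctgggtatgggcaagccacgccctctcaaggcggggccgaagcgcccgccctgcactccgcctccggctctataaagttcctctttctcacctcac
Rora, chr9:68653536-68653785, plus strand: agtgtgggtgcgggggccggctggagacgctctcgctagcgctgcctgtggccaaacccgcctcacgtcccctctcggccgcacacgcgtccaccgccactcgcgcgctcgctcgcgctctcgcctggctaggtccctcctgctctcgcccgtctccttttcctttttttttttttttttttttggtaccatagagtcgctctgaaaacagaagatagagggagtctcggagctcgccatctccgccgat
Prdm1, chr10:44458749-44458998, minus strand, a start inside the annotated gene: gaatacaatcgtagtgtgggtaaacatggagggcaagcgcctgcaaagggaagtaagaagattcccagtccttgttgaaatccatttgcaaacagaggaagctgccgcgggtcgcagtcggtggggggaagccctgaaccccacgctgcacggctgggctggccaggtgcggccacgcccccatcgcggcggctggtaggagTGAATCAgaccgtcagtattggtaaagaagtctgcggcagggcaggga
Bcl6, chr16:23981284-23981533, minus strand, a start inside the annotated gene: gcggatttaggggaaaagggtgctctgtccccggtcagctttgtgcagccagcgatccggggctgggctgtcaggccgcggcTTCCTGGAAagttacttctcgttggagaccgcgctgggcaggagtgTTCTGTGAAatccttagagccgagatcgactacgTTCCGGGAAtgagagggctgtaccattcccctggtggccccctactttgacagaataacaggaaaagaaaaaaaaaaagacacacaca
In *Bcl6* the 3 STAT forms begin 168, 122 and 88 bases before this start, and the window of its other start held 1 more. In *Prdm1* the match to TGANTCA, whose middle base was left free in the search, reads TGAATCA and begins 48 bases before the start. No match was found in the windows of *Irf4*, *Rora*, *Batf*, *Id2*, *Gata3* and *Tbx21*, which says only that these letters are not in them. The counts are per gene and do not tell which start site was used.

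*Irf4* and *Batf*, the pair that starts the programme, had differences of opposite sign. *Irf4* (chr13:30749226-30766976) was at 96.1, 105 and 86.3 CPM in the OGT-sufficient libraries and at 139, 130 and 163 CPM in the OGT-deficient libraries. Every OGT-deficient library was above every OGT-sufficient one. The mean was 95.9 ± 9.59 against 144 ± 16.8 CPM (SD, n = 3 each), and the log2 fold change of OGT-deficient over OGT-sufficient cells was 0.58 with a standard error (SE) of 0.13, an unadjusted p of 0.0016 and an adjusted p of 0.306. *Batf* (chr12:85686669-85709087) was at 37.5, 33.8 and 29.4 CPM in the OGT-sufficient and at 23.6, 21.9 and 27.9 CPM in the OGT-deficient libraries. The gap between its groups was narrow, and its log2 fold change was -0.45 (SE 0.16, adjusted p = 0.577).

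Since both genes were counted in the same libraries, their ratio does not depend on how the libraries were scaled. There were 2.56, 3.12 and 2.94 *Irf4* counts for each *Batf* count in the OGT-sufficient libraries and 5.88, 5.93 and 5.82 in the OGT-deficient libraries. The ratio was thus 2.05-fold higher in OGT-deficient than in OGT-sufficient cells, with no overlap. In OGT-deficient libraries counting error alone gives a coefficient of variation of 10.2% for *Batf* and 4.23% for *Irf4*. The 3 ratios there lay closer together than that, so their closeness is not read as a trait of these cells. On the log2 scale the means were 1.52 ± 0.15 and 2.56 ± 0.013 (SD, n = 3 each). The pair was chosen after the counts had been seen, so its ratio is a description without a test.

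Among the partners of these factors, 13 of 16 AP-1 and IRF genes were tested and none was called. At an unadjusted p under 0.05, 2 were lower (4.01% of all genes) and 1 higher (3.09%). *Junb*, which encodes a dimer partner of BATF, was at 134 ± 0.771 CPM in OGT-sufficient and 102 ± 7.27 CPM in OGT-deficient cells (SD, n = 3 each), or -0.40 in log2 fold change (SE 0.11). *Irf3*, a sensor-activated interferon regulator, had a log2 fold change of -0.36, and *Irf9*, a subunit of the interferon-activated ISGF3 complex, one of 0.36. *Irf8*, the nearest relative of *Irf4*, was at 92.6 ± 19.8 and 102 ± 17.4 CPM, with overlap, and the *Batf* relatives *Batf2* and *Batf3* had too few counts to be tested. Over the 6 libraries the pattern of *Irf4* was nearest to those of *Frmd6* and *Txnip*, at root mean square differences of 0.038 and 0.057 on the log2 scale after each gene was centred on its own mean, and that of *Batf* was nearest to *Kbtbd8* (0.062) and *Ccdc94* (0.074).

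*Rora*, which encodes a nuclear receptor of Th17 cells and of tissue Treg cells, had the lowest p of the 9. Its level (chr9:68653786-69388246) was 55.4, 67.6 and 49.6 CPM in the OGT-sufficient and 31.1, 26.7 and 23.2 CPM in the OGT-deficient libraries. The lowest OGT-sufficient library was well above the highest OGT-deficient one. The log2 fold change was -1.09 (SE 0.17, 95% interval -1.47 to -0.71), or 2.13-fold lower, and *Rora* ranked 7th of all genes tested by p (unadjusted p of 0.00012, adjusted p of 0.189). It was called with edgeR's exact test (adjusted p = 0.00018), with DESeq2 (0.0031), without a low-count filter (0.00057), with the macrophage genes as a covariate (0.0564) and without OGT-sufficient replicate 3 (0.0957), and its adjusted p reached 0.719 in other settings. Of the Th17 genes listed, 2 of 7 were tested, and *Ahr*, a ligand-activated receptor, had a log2 fold change of -0.51 (SE 0.22) at an unadjusted p of 0.0436. The pattern of *Rora* over the 6 libraries was nearest to those of *S100a4*, a calcium-binding protein gene and eTreg marker (root mean square difference 0.070), and *Angptl2* (0.136). *S100a4* was at 29.0, 31.9 and 26.5 CPM in OGT-sufficient and 17.0, 13.4 and 11.5 CPM in OGT-deficient libraries.

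**Figure D2:**
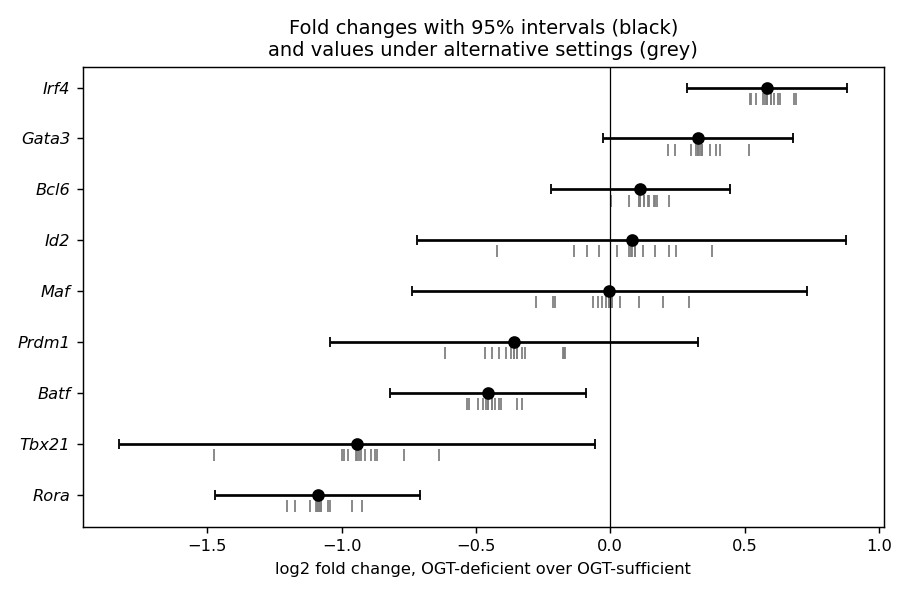
Log2 fold change of each factor, OGT-deficient over OGT-sufficient (x axis), as a black point with its 95% interval from edgeR's quasi-likelihood fit; grey ticks are the values under the alternative settings. The intervals of *Rora*, *Tbx21*, *Batf* and *Irf4* do not reach 0, and those of the other 5 factors do.

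The helper-lineage factors *Tbx21* and *Gata3* also had differences of opposite sign. *Tbx21* (chr11:97098071-97115331), which drives Th1 genes such as *Cxcr3*, had only 20, 24 and 25 counts in the OGT-sufficient and 20, 10 and 7 counts in the OGT-deficient libraries. In CPM the groups did not overlap, but 5.14 CPM in OGT-deficient replicate 1 lay next to 5.32 CPM in OGT-sufficient replicate 1. Its log2 fold change was -0.94 (SE 0.39, adjusted p = 0.677), and it ranged from -1.47 to -0.64 as each library was left out, with the extremes without OGT-deficient replicates 1 and 3. At such counts, counting error alone gives a coefficient of variation of 28.5% in OGT-deficient cells, against 55.2% observed. *Gata3* (chr2:9857078-9890034), the Th2 factor, which also holds Treg cells in tissues, was at 109, 136 and 92.8 CPM in the OGT-sufficient and 158, 135 and 132 CPM in the OGT-deficient libraries. OGT-sufficient replicate 2 lay inside the OGT-deficient range, and the log2 fold change of 0.33 (SE 0.16, 95% interval -0.026 to 0.68) had an adjusted p of 0.724. For each *Gata3* count there were 0.0487, 0.0473 and 0.0706 *Tbx21* counts in OGT-sufficient and 0.0325, 0.0187 and 0.0139 in OGT-deficient libraries, again without a test.

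Th1 genes, some of which T-BET is known to drive, had mostly negative log2 fold changes. Of 8 Th1 genes, all were tested and none was called. A negative log2 fold change was found in 7 of them, and in 52.7% of all genes. At an unadjusted p under 0.05, 3 were lower (4.01% of all genes). The median of the 8 was -0.37, against -0.017 over all genes. *Il18r1*, a receptor chain for IL-18, was at 61.0 ± 10.5 CPM in OGT-sufficient and 34.4 ± 3.71 CPM in OGT-deficient cells (SD, n = 3 each). *Cxcr3*, a chemokine receptor of Th1-type Treg cells, was at 16.5 ± 7.21 and 7.26 ± 2.98 CPM, with overlap. *Runx3* had a log2 fold change of -0.67 (SE 0.22). It was at 42.0, 53.9 and 81.8 CPM in OGT-sufficient and 37.0, 38.3 and 36.3 CPM in OGT-deficient libraries. The highest value was that of OGT-sufficient replicate 3, the library that stood apart. Of 8 Th2 genes 3 were tested, and none had an unadjusted p under 0.05. The lowest p was that of *Ccr4*, a skin-homing chemokine receptor, with a log2 fold change of -0.40 (SE 0.18), which is opposite in sign to *Gata3*.

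*Prdm1* and its antagonist *Bcl6* overlapped between the genotypes over all 6 libraries. *Prdm1* (chr10:44437177-44528501) was at 20.5, 20.7 and 10.2 CPM in the OGT-sufficient and at 9.76, 14.9 and 15.4 CPM in the OGT-deficient libraries. *Bcl6* (chr16:23965052-23988852) was the steadiest of the 9, at 28.2, 29.8 and 31.7 CPM in the OGT-sufficient and 37.0, 31.0 and 29.0 CPM in the OGT-deficient libraries. The highest library of *Bcl6* was 1.31-fold above the lowest, where the other factors spanned from 1.70-fold to 3.59-fold. Its log2 fold change was 0.11 (SE 0.15, 95% interval -0.22 to 0.45), while that of *Prdm1* was -0.36 (SE 0.30) with a wider interval, from -1.04 to 0.33. The value of *Prdm1* depended on single libraries. It was -0.62 (95% interval -1.12 to -0.11, unadjusted p of 0.0234, adjusted p of 0.661) without OGT-sufficient replicate 3, and lay between -0.44 and -0.17 with each other library left out, nearest to 0 without OGT-sufficient replicate 1 or 2 or OGT-deficient replicate 1. The ratio of *Prdm1* to *Bcl6* counts was 0.726, 0.694 and 0.322 in the OGT-sufficient and 0.264, 0.480 and 0.532 in the OGT-deficient libraries, with overlap. All 10 genes of their corepressors were tested, and 2 were lower at an unadjusted p under 0.05 (4.01% of all genes). *Ezh2*, a histone H3 methyltransferase, had a log2 fold change of -0.39 (SE 0.12), and *Bcor*, a BCL6 corepressor, one of -0.35 (SE 0.13). Of 8 follicular genes 6 were tested, all with a negative log2 fold change (as 52.7% of all genes had). At an unadjusted p under 0.05, 1 was lower (4.01% of all genes). The 8 B-cell genes, all with a negative log2 fold change and a median of -0.81, moved with some of them: *Pou2af1*, which B cells also express, had 60, 37 and 167 counts in OGT-sufficient and 71, 45 and 27 counts in OGT-deficient libraries, and the B-cell sum was likewise highest in OGT-sufficient replicate 3. The part of B cells in the follicular list was not tested. The gene with an unadjusted p under 0.05 was *Tox2*, a factor of follicular T cells, at 7.09 ± 2.07 against 2.47 ± 0.746 CPM (SD, n = 3 each).

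**Figure D3:**
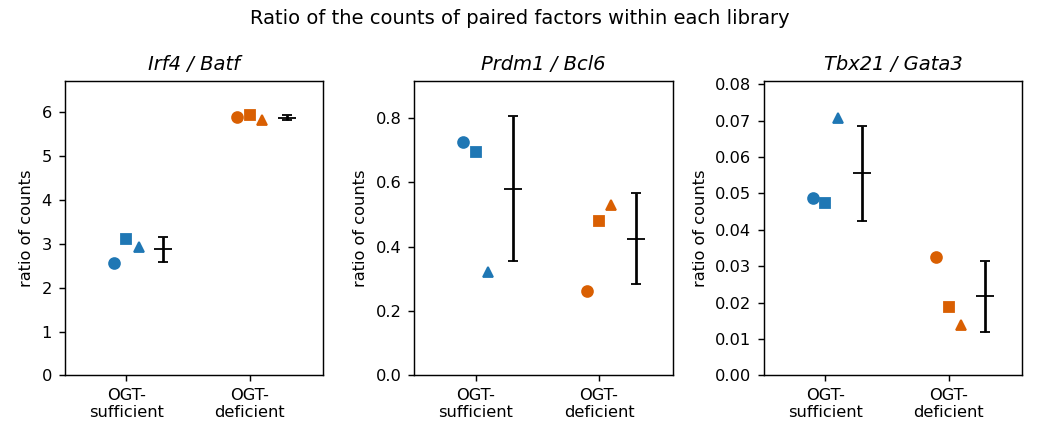
Ratio of the counts of 2 factors within each library (y axis, from 0), in OGT-sufficient (blue) and OGT-deficient (orange) cells; symbols are replicates 1, 2 and 3 and the black bar is the mean ± SD. The *Irf4* to *Batf* ratio lies between 2.56 and 3.12 in OGT-sufficient and between 5.82 and 5.93 in OGT-deficient libraries, and the *Prdm1* to *Bcl6* ratio overlaps.

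*Maf* and *Id2* varied more between libraries of 1 genotype than between genotypes. *Maf* (chr8:115682942-115707794), which supports *Il10* and Treg cells of the gut, was at 173, 192 and 106 CPM in the OGT-sufficient and 84.8, 169 and 216 CPM in the OGT-deficient libraries. The group means of 157 ± 45.2 and 157 ± 66.6 CPM (SD, n = 3 each) were alike, but the 95% interval of the log2 fold change, -0.74 to 0.73, leaves room for a difference in either direction. *Id2* (chr12:25093799-25097140), an inhibitor that binds E proteins and keeps them from DNA, was at 64.9, 71.4 and 45.4 CPM in the OGT-sufficient and 34.4, 53.9 and 104 CPM in the OGT-deficient libraries. Its coefficient of variation among OGT-deficient libraries was 55.8%, where counting error gives 6.35%. None of the 4 tested genes of the other ID and E proteins, the 6 tested MAF and BACH genes and the 3 tested ROR, GATA and T-box relatives had an unadjusted p under 0.05.

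The libraries low in *Maf*, *Id2* and *Prdm1* were also low in macrophage RNA. The summed level of the 15 macrophage genes was 4871, 4302 and 2285 CPM in OGT-sufficient and 1657, 6079 and 7057 CPM in OGT-deficient replicates 1, 2 and 3. OGT-deficient replicate 1 and OGT-sufficient replicate 3 were the lowest libraries for this sum and for each of *Maf*, *Id2* and *Prdm1*. OGT-deficient replicate 3 was the highest for the sum, for *Maf* and for *Id2*. Macrophages are known to express *Maf* and *Id2* as well. With the mean of the macrophage genes as a covariate, the SE of the *Maf* log2 fold change went from 0.32 to 0.13 and the value from -0.0031 to -0.21 (adjusted p = 0.732, in a range of 0.732 to 1 over all alternative settings). *Prdm1* then had -0.46 (SE 0.22) and *Id2* -0.13 (SE 0.21). For the 4 factors whose groups were apart the covariate changed little, giving -1.08 for *Rora*, 0.57 for *Irf4*, -0.48 for *Batf* and -0.91 for *Tbx21*. How much of the RNA of *Maf*, *Id2* or *Prdm1* came from macrophages was not tested.

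**Figure D4:**
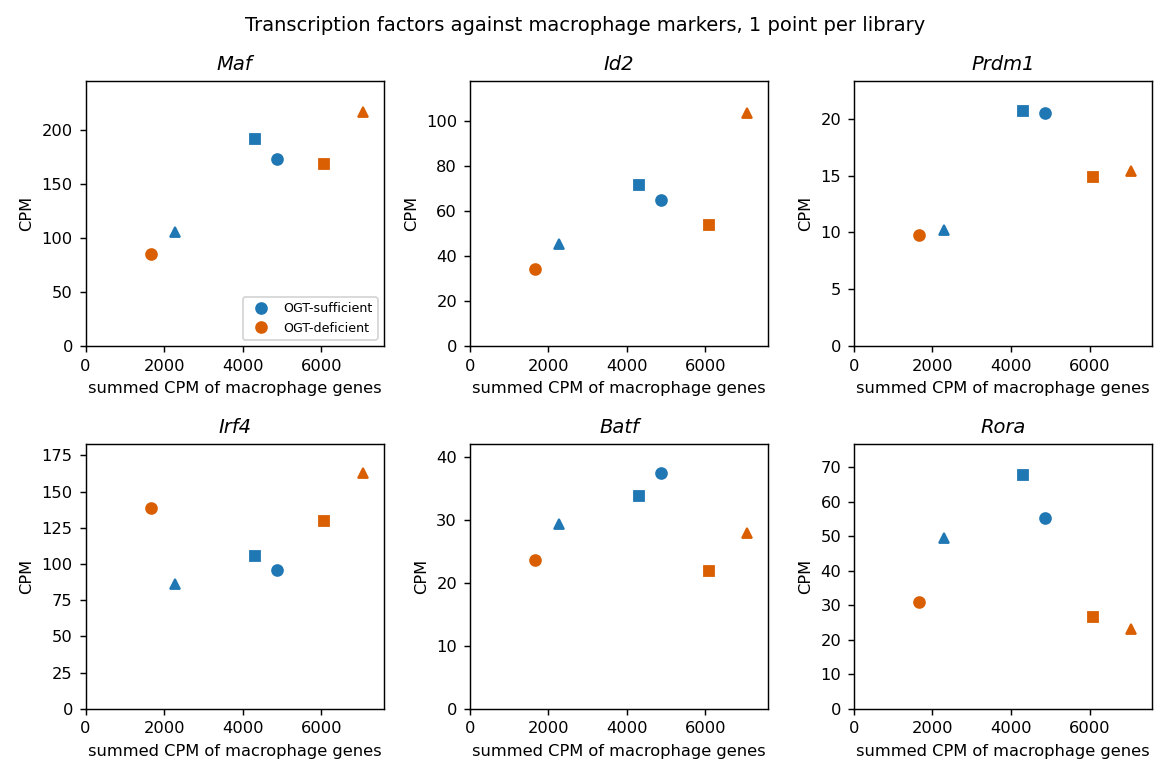
Level of 6 factors in CPM (y axes) against the summed CPM of 15 macrophage genes (x axes), 1 point per library, OGT-sufficient in blue and OGT-deficient in orange, with symbols for replicates 1, 2 and 3. *Maf*, *Id2* and *Prdm1* are lowest in the 2 libraries with the least macrophage RNA, while *Irf4* and *Rora* part by genotype at both ends of the x axis.

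Other cells use these factors too, and their markers were summed in each library. NK cells express *Tbx21* and *Id2*. Their 6 marker genes summed to 4.79, 5.10 and 11.0 CPM in OGT-sufficient and 5.91, 4.28 and 2.87 CPM in OGT-deficient libraries, with *Klra8* and *Klra4* at 0 in every library. These sums were of the same size as the level of *Tbx21*, and both were highest in OGT-sufficient replicate 3 and lowest in OGT-deficient replicate 3. Between these extremes the order of the libraries was the same except for OGT-deficient replicate 1. The sum there was above those in OGT-sufficient replicates 1 and 2, while *Tbx21* was below (5.14 against 5.32 and 6.44 CPM). These *Tbx21* levels rest on 20 counts against 20 and 24. Innate lymphoid cells of group 2 (ILC2) express *Gata3* and *Rora*, and of their defining cytokine genes *Il5* had no count in any library and *Il13* had 1 count in all. The 8 ILC2 genes summed to 17.8 to 19.6 CPM in OGT-sufficient and 8.48 to 11.1 CPM in OGT-deficient cells, a difference carried mainly by *Klrg1*, which eTreg cells also express. Plasma cells express *Prdm1* and *Irf4*. Their 6 genes summed to 24.4 to 33.3 CPM in OGT-sufficient and 26.9 to 47.3 CPM in OGT-deficient cells, highest in OGT-deficient replicate 1. *Irf4* was highest in OGT-deficient replicate 3. The 8 B-cell genes summed to 96.3 to 351 CPM in OGT-sufficient and 95.8 to 164 CPM in OGT-deficient cells, and the 7 red cell precursor genes to 179 to 733 and 183 to 397 CPM, both highest in OGT-sufficient replicate 3. The 8 dendritic-cell genes summed to 54.5 to 75.3 and 59.0 to 65.2 CPM, and the 2 CD8 genes to 18.1 to 22.5 and 12.0 to 26.5 CPM. Of the Treg and CD4 T-cell genes, 9 of 10 were in the table and tested, and none had an unadjusted p under 0.05. These marker genes summed to 3111, 3416 and 2350 CPM in OGT-sufficient and 3556, 3207 and 3047 CPM in OGT-deficient libraries. The sum was lowest in OGT-sufficient replicate 3. The part of these cells in the values of the 9 factors was not tested. Without OGT-sufficient replicate 3, the library that stood apart, the log2 fold changes were -1.17 for *Rora*, 0.52 for *Irf4*, -0.53 for *Batf*, -0.88 for *Tbx21* and -0.62 for *Prdm1*.

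The genes that eTreg cells are known to use had differences in both directions. Of 22 eTreg genes 20 were tested and none was called, while 8 were lower and 3 higher at an unadjusted p under 0.05, and the median log2 fold change was -0.33. The study had itself singled out genes of this list on these samples, among them *Klrg1*, *S100a4*, *Gzmb* and *Ccr2*, so the count is not independent evidence of a direction. *Ccr2*, a chemokine receptor, was at 26.3 ± 2.79 CPM in OGT-sufficient and 10.9 ± 1.51 CPM in OGT-deficient cells, and *Klrg1*, a receptor of terminal effector cells, at 8.87 ± 2.77 and 2.39 ± 1.02 CPM (SD, n = 3 each). *Pdcd1*, which encodes PD-1, was at 33.0 ± 4.93 against 20.6 ± 3.63 CPM. In the other direction *Il2rb*, the beta chain of the IL-2 receptor, was at 333 ± 103 against 536 ± 45.3 CPM. *Il10*, a target of BLIMP-1 and c-MAF, had too few counts to be tested. All 10 resting Treg genes were tested, and 3 were higher at an unadjusted p under 0.05 (3.09% of all genes). Among them, *Klf2*, a factor of recirculating cells, had a log2 fold change of 0.52 (SE 0.14). *Ccr7*, the lymph-node chemokine receptor, had one of 0.31 (SE 0.12).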

How the data were processed

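The authors trimmed paired-end reads with Trimmomatic 0.33, checked them with FastQC, mapped them with Bowtie2 2.2.4.0 to mm10 (the assembly GRCm38) and tested genes with edgeR. Gene counting is given as featureCounts in the submitters' processing notes and as Cuffquant in the study's methods. The annotation, the strand setting and the treatment of shared reads are not given in the sources used here, so reads of antisense genes that overlap exons of *Maf* (5.34% of its exon bases), *Gata3* (3.90%), *Rora* (0.627%) and of a gene overlapping *Bcl6* (0.313%) cannot be told apart. On the same strand, the protein-coding gene *9230102O04Rik* overlaps 1.94% of the exon bases of *Gata3*, and its reads cannot be told apart either. The deposited values used here are whole counts per gene symbol and library, without normalization; the deposited means, fold changes and p-values of the authors' own test were not used, and 0 further columns of single samples were left out.

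Libraries were grouped by genotype from their labels. Counts were analysed in R 4.3.3 (edgeR 4.0.16, DESeq2 1.42.0, limma 3.58.1) and Python 3.11.15. Genes passing edgeR's filter at a minimum count of 10 were scaled by TMM and tested by quasi-likelihood, with Benjamini-Hochberg adjustment. Standard errors were taken from the fold change and its F statistic. RPKM values divide CPM by the exon length in GENCODE M21, which also gave the gene coordinates (GRCm38). Levels at or under 3 counts, between 0.756 and 0.805 CPM, are at the floor, and this covers counting error only. The median biological coefficient of variation was 15.9%. Replicates were distinct libraries (chi-square per degree of freedom of their counts between 3.31 and 22.0).

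The members and gene lists were chosen with earlier results of these data known. The text names the 9 factors, *Ogt*, *Foxp3*, and from each list up to 3 tested genes with the lowest p, from marker lists also up to 3 with the highest level, and the 2 genes nearest in pattern to a factor (left out where that factor varied little); *Irf8*, *Batf2*, *Batf3*, *Pdcd1*, *Il2rb*, *Il10*, *Gzmb*, *Pou2af1* and the markers without counts were named after their values were seen. Some genes that this rule selects are not reported here. Alternatives were DESeq2, edgeR's exact test, other scalings and filters, the replicate number as a block, a macrophage covariate, and leaving out each library.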

Additional observations from a re-analysis of the deposited data

How the results depend on the processing

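*Rora*, *Batf* and *Tbx21* were lower and *Irf4* and *Gata3* higher in OGT-deficient cells in each alternative in which they were tested, as *Prdm1* was lower and *Bcl6* higher (*Tbx21* drops out where each library must hold at least 10 counts). *Irf4* was called with edgeR's exact test (adjusted p = 0.0814) and without a filter (0.0327), in a range of 0.0327 to 0.765 over its alternatives. Of the 9 factors, 0 were called by the reported test, 2 by the exact test, 1 by DESeq2, 2 without a low-count filter and 1 given the macrophage covariate. Leaving out a library gave 0 to 1, the 1 being *Rora* without OGT-sufficient replicate 3. Over all genes these numbers were 3, 80, 38, 131, 31 and 0 to 9, with 9 without OGT-sufficient replicate 3 and 0 on omitting OGT-deficient replicate 2 (454 with an unadjusted p under 0.05) or replicate 3 (721). The *Ogt* log2 fold change of -1.21 was called with the exact test (-1.21), DESeq2 (-1.19), no filter (-1.15) and the macrophage covariate (-1.14). The direction of *Id2* and *Maf* was not fixed. *Id2* was at 0.079 and changed sign with the replicate block (-0.042) and the macrophage covariate (-0.13), and ranged from -0.42 to 0.38 with a library left out, negative without OGT-sufficient or OGT-deficient replicate 3. *Maf* was at -0.0031 and changed sign with DESeq2 (0.0081), DESeq2's size factors in edgeR (0.0082) and no filter (0.036), and ranged from -0.28 to 0.29 with a library left out, positive without OGT-sufficient replicate 1 or 2 or OGT-deficient replicate 1. The cause was not tested.

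The replicate numbers were not used as pairs in the reported test. Same-numbered libraries had correlations of -0.281, 0.0073 and -0.118 of their deviations from the group means. Differently numbered ones ranged from -0.200 to 0.264, a similar size, so these values cannot show whether libraries were prepared as pairs. With the replicate block edgeR called 0 genes (679 of all genes and 3 of the 9 factors at an unadjusted p under 0.05).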
